A study of Homo sapiens with 8 samples.

Results

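Nucleoporins are the proteins of the nuclear pore, and their mRNAs were read here from 65 probes of 50599 on a whole-genome expression array, in human cells that expressed an RNA-binding protein. The members were the non-control probes whose printed gene name is that of a nucleoporin or of a NUP- or POM121-named relative, and they carried 40 gene names. Of these names, 30 (49 probes) belong to genes of the pore itself and 10 (16 probes) to relatives and pseudogenes, such as the POM121L genes. The 4 lines compared were FT293 cells, which are HEK293 human embryonic kidney cells with a single Flp-In integration site and the T-REx tetracycline repressor, and each carried a tetracycline-inducible transgene for GFP, GFP-HuR, GFP-TIA1 or GFP-TIAR. RNA was taken on day 3 of tetracycline, which all lines, the GFP controls included, received. Each line was hybridised to 2 one-colour arrays from independent biological replicates. As each protein was expressed in 1 line, differences between the integrated lines themselves cannot be told apart from those of the expressed protein. One source label of TIA1 replicate 2 reads GFP-TIA2, while its other labels read GFP-TIA1.

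The nuclear pore complex is the gate through which proteins and RNA pass the nuclear envelope. Ring-shaped scaffolds, the Y complex and the inner ring, are anchored in the membrane and carry a central channel lined by phenylalanine-glycine repeats, with a basket on the nuclear side and filaments on the cytoplasmic side. TIA1 and TIAR are related RNA-binding proteins that act in splicing, mRNA stability and translation, and HuR binds and stabilises many mRNAs. The paper's array results compare the TIA lines with the HuR line, and its other assays also use the GFP control. For the pore genes the TIA lines were compared here with both, and TIAR with TIA1 and HuR with GFP besides.

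A level below is the log2 of a probe's processed signal minus the 75th percentile of its array, and a change is the difference of the mean levels of 2 lines. A probe was called when it changed at least 2-fold with a Benjamini-Hochberg adjusted p under 0.05 in limma over all tested probes. Of the 65 member probes, 48 were well above background on all 8 arrays, 46 of them from pore genes. Another 6 were so only on GFP replicate 1, 4 on no array and 7 on some arrays, and 12 were never tested in any comparison. GFP replicate 1 stood apart, with 86.1% of all probes well above background against 53.3% to 58.6% on the other 7 arrays, and with a mean local background of 79.3 signal units against 27.8 to 33.8. Of the expressed genes, a TIAL1 (TIAR) probe stood at 4.87 and 4.98 in TIAR cells, at 1.63 and 1.74 in TIA1 cells and at 2.05 to 2.52 in GFP and HuR cells. The other TIAL1 probe read -4.12 and -3.85 in TIAR cells and -4.36 to -3.45 elsewhere. No TIA1 or ELAVL1 (HuR) probe was highest in its own line. Whether those probes lie within the transgenes is not known here, so they check nothing. The HEK293 markers LHX1, NEFL and 1 of the PAX2 probes were well above background on all arrays. NEFM was so on 7 arrays, at -4.96 to -3.76, and PAX8 and the other PAX2 probe on 2. Of 7 marker genes of blood, endothelium, liver and muscle, 3 (PTPRC, CDH5 and DES) had a probe well above background on all arrays, the PTPRC probe at 1.12 on GFP replicate 1 and at -4.66 to -3.94 elsewhere. The liver marker ALB read -3.13 to -2.76 in the TIA lines, -5.94 and -5.42 in HuR cells, and -3.53 and -6.04 in GFP cells, and its part in the results below was not tested. In bulk RNA, fewer cells of one kind and less RNA per cell cannot be told apart.

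NUP98 is the member on which the results turned. It carries phenylalanine-glycine repeats, moves between both faces of the pore and binds the export factor RAE1. The gene is known to give a short mRNA for NUP98 alone and a long mRNA for a NUP98-NUP96 precursor, which cleaves itself. The array holds 2 NUP98 probes that share 0 accessions. The short-transcript probe (A_23_P308032) is annotated to NM_005387 and lies at chr11:3733190-3733249 of hg19 on the minus strand. The long-transcript probe (A_23_P203586) is annotated to NM_016320 and lies at chr11:3696747-3696806 on the same strand, so its facing end is 36384 bases downstream in the direction of transcription. The first 30 bases of each probe are shown because the probes gave opposite results, 5′ to 3′ and with no part marked.
NUP98 short-transcript probe: tggggagattagggcctacattgtttatcg
NUP98 long-transcript probe: ggagggattgatcttcagggctgtttttgt

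NUP98 was higher on the short-transcript probe in both TIA lines than in HuR cells. Its level was 1.12 and 1.65 on the GFP arrays, 1.00 and 0.90 in HuR cells, 3.13 and 3.11 in TIA1 cells, and 3.13 and 3.22 in TIAR cells. All 4 TIA1 and TIAR arrays lay above all 4 GFP and HuR arrays. The probe rose 4.52-fold in TIA1 against HuR cells, a log2 change of 2.18 (SE 0.10, 95% confidence interval 1.92 to 2.43, limma adjusted p = 0.00177). In TIAR against HuR cells it rose 4.69-fold, a log2 change of 2.23 (SE 0.10, interval 1.95 to 2.51, limma adjusted p = 0.0037). Both were the largest changes among the 53 member probes tested, the next being 1.40 and 1.46 in size. Over all tested probes, 1.55% changed upwards by at least as much in TIA1 cells and 1.33% in TIAR cells. Both changes are measured against the same HuR arrays, and the study had selected NUP98 from these same arrays, so the calls are no independent test of that selection.

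Against GFP cells the same probe was higher by 1.74 in TIA1 cells (SE 0.26, limma adjusted p = 0.105) and by 1.79 in TIAR cells (SE 0.26, limma adjusted p = 0.179), and it was not called. With either GFP array left out it was called. In TIA1 cells the change was then 1.48 (adjusted p = 0.0237) without GFP replicate 1 and 2.00 (adjusted p = 0.00616) without GFP replicate 2. In TIAR cells it was 1.53 (adjusted p = 0.035) and 2.05 (adjusted p = 0.00747), and the lone GFP array was taken to vary like the arrays of the other line. The TIA1 and TIAR lines differed by 0.05 on this probe (interval -0.24 to 0.35, limma adjusted p = 0.805).

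The long-transcript probe went the other way by less than 2-fold. It stood at 2.41 and 2.74 on the GFP arrays, 2.54 and 2.48 in HuR cells, 2.02 and 1.95 in TIA1 cells, and 1.67 and 2.00 in TIAR cells. Every TIA1 and TIAR array thus lay below every GFP and HuR array, by changes against HuR of -0.52 (SE 0.09, limma adjusted p = 0.0167) and -0.67 (SE 0.15, limma adjusted p = 0.0354). The short-minus-long difference within an array was -1.19 ± 0.14 (SD, n = 2) in GFP cells, -1.56 ± 0.03 in HuR cells, 1.14 ± 0.03 in TIA1 cells and 1.34 ± 0.17 in TIAR cells. Probes differ in how brightly they read a molecule, so these differences are no ratio of the transcripts, but their shift between lines shows that both stretches changed unequally. The shift was not tested on its own.

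**Figure D1:**
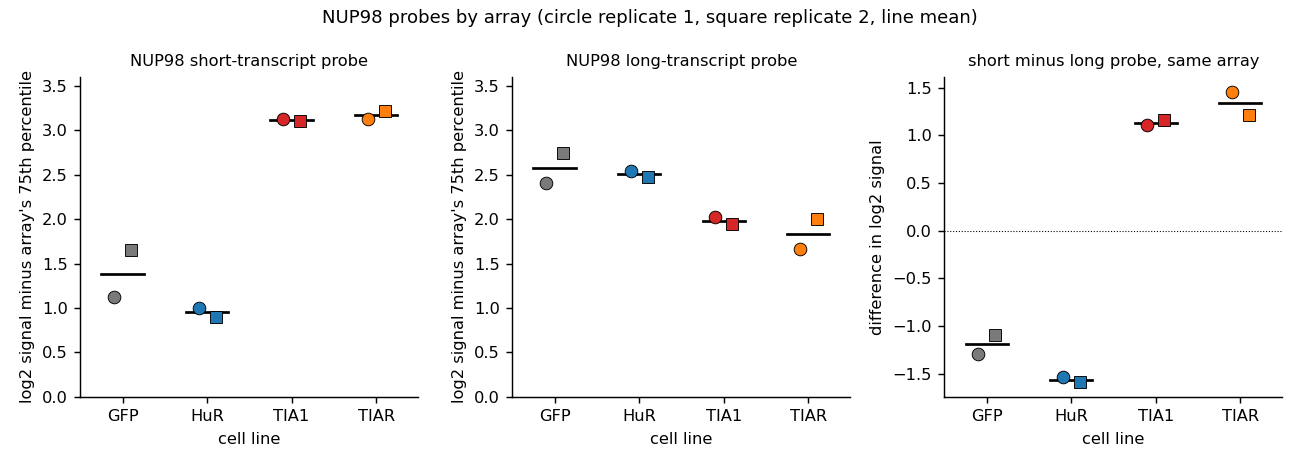
The left and middle panels plot the level (log2 signal minus the array's 75th percentile) of the short- and long-transcript NUP98 probes in each line, and the right panel plots the within-array difference of both probes in log2 units. Circles and squares are replicates 1 and 2 and lines are means of 2 arrays; the short-transcript probe is at 3.11 to 3.22 in TIA1 and TIAR cells and at 0.90 to 1.65 in the others.

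Of the 53 member probes tested in TIA1 against HuR cells, 2 were called higher, NUP98 and NUP43, and 2 lower, NUP210 and NUPL1. Over all tested probes 8.52% were called higher and 4.91% lower. In TIAR against HuR cells 1 of 53 was called higher, NUP98, and 1 lower, NUP210, beside 7.09% and 3.01% of all probes. Calls over all probes were 63.5% upward in TIA1 cells but 52.5% after scaling to the array median and 53.3% after quantile normalization. In TIAR cells they were 70.2% upward, 56.4% after quantile normalization and 59.6% in the authors' value table. At an adjusted p under 0.05 and any fold, 8 members were higher and 13 lower in TIA1 cells (24.2% and 17.3% of all probes), and 2 were higher and 6 lower in TIAR cells (18.1% and 12.6%).

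Member probes moved little on the whole. Within 1.5-fold of the HuR level were 83.0% of them in both TIA1 and TIAR cells, against 66.8% and 71.7% of all tested probes. Their median absolute log2 change was 0.32 in TIA1 and 0.26 in TIAR cells, against 0.39 and 0.34. Members and all probes were not matched for signal level, and its part in these figures was not tested. The median signed change was 0.01 in TIA1 cells, where all probes had 0.08, and -0.20 in TIAR cells, where all had 0.06. Under the other scalings the members' median was -0.10 to -0.02 in TIA1 cells, so its sign turned, and in TIAR cells it was below 0 under each scaling tried.

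**Figure D2:**
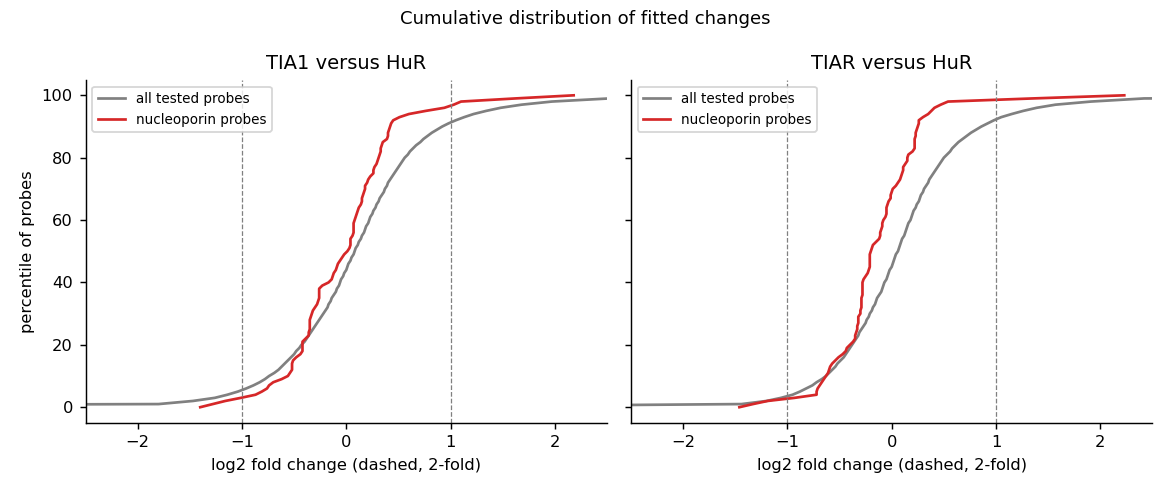
The cumulative percentile of probes (vertical) is plotted against the fitted log2 fold change (horizontal) for all tested probes and for the nucleoporin probes, in TIA1 versus HuR and TIAR versus HuR, with dashed lines at 2-fold. The curve of the 53 nucleoporin probes is the steeper around 0, with 83.0% of them within 1.5-fold in both comparisons.

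In the nuclear basket, which TPR builds and NUP153 anchors, none of 5 probes was called by limma, with 3 and 2 of them at an unadjusted p under 0.05 in TIA1 and TIAR against HuR cells, where 52.4% and 45.5% of all probes were so. TPR had the nearest value on a probe (A_33_P3361771) at -3.30 and -3.38 in HuR cells and -2.26 and -2.48 in TIA1 cells. The change was 0.97 (SE 0.12, limma adjusted p = 0.00743), just under 2-fold, and -0.13 in TIAR cells. The GFP arrays did not agree on this probe, at -2.40 and -4.15. The other TPR probe was higher by 0.40 in TIA1 cells (limma adjusted p = 0.0362). NUP153 and both NUP50 probes ranged from -0.35 to -0.10 in TIA1 cells and from -0.53 to -0.28 in TIAR cells, with no adjusted p under 0.05.

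The Y complex, the scaffold of the outer rings, had 17 tested probes, of which 1 was called. NUP43, one of its beta-propeller subunits, read -1.39 and -1.43 in HuR cells, -0.34 and -0.27 in TIA1 cells, -0.96 and -1.03 in TIAR cells, and -1.08 and -0.88 in GFP cells on its probe at chr6:150057613-150057672 (A_33_P3273063). It rose by 1.10 in TIA1 against HuR cells (SE 0.09, 2.15-fold, limma adjusted p = 0.00374), with HuR the lowest line and TIA1 the highest. The change fell under 2-fold with array median scaling (0.99), quantile normalization (0.98) and the authors' value table (0.85). In TIAR cells it was 0.42 (limma adjusted p = 0.0391), and between the TIA lines -0.69 (limma adjusted p = 0.0554). The second NUP43 probe, at chr6:150045580-150045639, changed by 0.14 and -0.09, with no adjusted p under 0.05. The start of both probes is given because they read separate stretches of the gene with different results.
NUP43 called probe: tgagtatttgggatgttagacaaggtacta
NUP43 other probe: gtgtgtgagtgggatccaaaacactcaatc

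Other Y complex subunits stayed below 2-fold. SEH1L was lower on both probes in TIA1 cells, by changes of -0.50 (limma adjusted p = 0.0173) and -0.57 (limma adjusted p = 0.0243). NUP160 (-0.42) and 1 of the NUP133 probes (-0.34) also passed the adjusted p in TIA1 cells. The other NUP133 probe had a change of opposite sign, 0.26 (limma adjusted p = 0.285). AHCTF1 (ELYS), which seeds new pores on chromatin, was at 0.30 and 0.29 in HuR cells and at -0.50 and -0.35 in TIAR cells, a change of -0.72 (SE 0.10, limma adjusted p = 0.0147). On the TIA1 arrays the same AHCTF1 probe read 0.67 and -0.07, on either side of HuR. The other AHCTF1 probe, which was dimmer, changed by 0.19 in TIA1 cells (limma adjusted p = 0.512) and by -0.05 in TIAR cells (limma adjusted p = 0.923). The 5 SEC13 probes ranged from -0.26 to 0.11 in TIA1 and from -0.19 to 0.54 in TIAR cells, and NUP107, NUP85 and NUP37 from -0.26 to -0.08 in both.

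The inner ring, the scaffold around the channel, had 6 tested probes and 0 calls by limma, with 3 at an unadjusted p under 0.05 in each comparison with HuR, close to the shares of all probes, 52.4% and 45.5%. Among them, NUP205 was higher by 0.33 in TIA1 cells (limma adjusted p = 0.0497), while NUP93 and a NUP35 probe were lower, by changes of -0.35 and -0.32. NUP188 stood at 0.72 and 0.96 in HuR cells and at 0.16 and 0.23 in TIAR cells, a change of -0.64 (limma adjusted p = 0.0275). The 6 changes against HuR ran from -0.35 to 0.33 in TIA1 cells and from -0.64 to 0.23 in TIAR cells. As all lay under 2-fold, no test could have called them. NUP155, which joins the inner ring to the membrane, changed by 0.07 and -0.04.

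In the central channel NUPL1 (now NUP58), a partner of NUP62 and NUP54 in the repeat-lined channel, was lower in TIA1 cells on 1 of its 3 probes, at chr13:25910360-25910419 (A_33_P3320538). That probe read -1.19 and -1.0 in GFP cells, -1.09 and -0.91 in HuR cells, -2.39 and -1.94 in TIA1 cells, and -1.34 and -1.86 in TIAR cells, so that both TIA lines lay below GFP and HuR. It fell by 1.17 on the log2 scale in TIA1 against HuR cells (SE 0.19, limma adjusted p = 0.0133) and had a change of -0.60 in TIAR cells (limma adjusted p = 0.0995). The call was lost without TIA1 replicate 1 (change -0.94), without HuR replicate 1 (adjusted p = 0.0652) and without HuR replicate 2 (adjusted p = 0.0853). The other 2 NUPL1 probes, at chr13:25915846-25915905 and chr13:25912864-25912923, changed by 0.17 and 0.32 in TIA1 cells and were not called. The probe with the change of 0.17 was the brightest, at 1.80 to 2.52, and the only one annotated to a RefSeq transcript. The starts of all 3 probes are shown because only A_33_P3320538 was called.
NUPL1 called probe: ggtgtaatgtagcagagcttaagaatagaa
NUPL1 probe 2: gccttagccatgatttcgttagtagaccta
NUPL1 probe 3: gtgcaggtttgtgtgtttctgcctggattt
NUP62, the main channel protein, ranged from -0.01 to 0.21 on its probes in both comparisons, and NUP54 from 0.00 to 0.16. The NUP54 spot on GFP replicate 2 was an outlier and was left out, so NUP54 was not tested against GFP.

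On the cytoplasmic side, where mRNA leaves the pore, NUP98 was the one call among 10 probes. NUPL2 (now NUP42), a docking site of the export helicase activator GLE1, gave close values on its 2 probes. The probe A_33_P3320548 stood at 2.46 and 2.43 in HuR cells, 1.77 and 1.60 in TIA1 cells, 1.76 and 1.68 in TIAR cells, and 1.88 and 2.13 in GFP cells. HuR was thus its highest line, and the changes were -0.76 in TIA1 cells (SE 0.11, limma adjusted p = 0.00955) and -0.72 in TIAR cells (SE 0.10, limma adjusted p = 0.0125). On the other NUPL2 probe they were -0.73 (limma adjusted p = 0.0166) and -0.59 (limma adjusted p = 0.0209), all under 2-fold. NUP214 (0.45), a RANBP2 probe (0.41) and NUP88 (-0.36) also passed the adjusted p in TIA1 cells. RAE1, the partner of NUP98 in mRNA export, changed by 0.27 and 0.22, with adjusted p values of 0.106 and 0.143 by limma.

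Of the membrane nucleoporins, which hold the pore in the envelope, NUP210 (gp210) was lower in both TIA lines than in HuR cells. Its probe at chr3:13358456-13358515 (A_23_P212159), which begins with the bases agacttcagtcctctgtttttgtttcataa, is shown as the only member called lower in both comparisons. The level was 0.87 and 1.24 in GFP cells, 1.58 and 1.52 in HuR cells, -0.08 and 0.38 in TIA1 cells, and 0.67 and 0.02 in TIAR cells. All TIA arrays lay below all GFP and HuR arrays. It fell by 1.40 on the log2 scale in TIA1 cells (SE 0.18, limma adjusted p = 0.00818) and by 1.21 in TIAR cells (SE 0.24, limma adjusted p = 0.0302), both against the same HuR arrays. In TIA1 cells the call was lost without HuR replicate 1 (adjusted p = 0.0589) or HuR replicate 2 (adjusted p = 0.0581). In TIAR cells it was lost without either HuR array (adjusted p = 0.14 in both cases) and without TIAR replicate 2 (change -0.88). Against GFP the changes were -0.90 (limma adjusted p = 0.193) and -0.71 (limma adjusted p = 0.374).

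POM121, a membrane anchor, gave unlike values on its probes. Its probe A_24_P349002, whose accessions include that of the copy POM121C, read 2.41 and 2.39 in HuR cells, 3.04 and 2.99 in TIA1 cells and 2.11 and 2.27 in TIAR cells. TIA1 was above HuR by 0.62 (limma adjusted p = 0.0108) and TIAR below TIA1 by a change of -0.83 (limma adjusted p = 0.0469), the one member probe with an adjusted p under 0.05 between the TIA lines, where 1.75% of all probes were so in each direction. The dimmer probe A_23_P215435 had a change of -1.46 in TIAR against HuR cells (SE 0.40, limma adjusted p = 0.0588), with HuR arrays at -3.43 and -2.40 and TIAR arrays at -4.61 and -4.15. It was called with the replicate number as a block (adjusted p = 0.0265). TMEM48 (now NDC1), which spans the membrane at the pore, changed by -0.43 in TIA1 cells (limma adjusted p = 0.0271) and by -0.36 in TIAR cells.

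**Figure D3:**
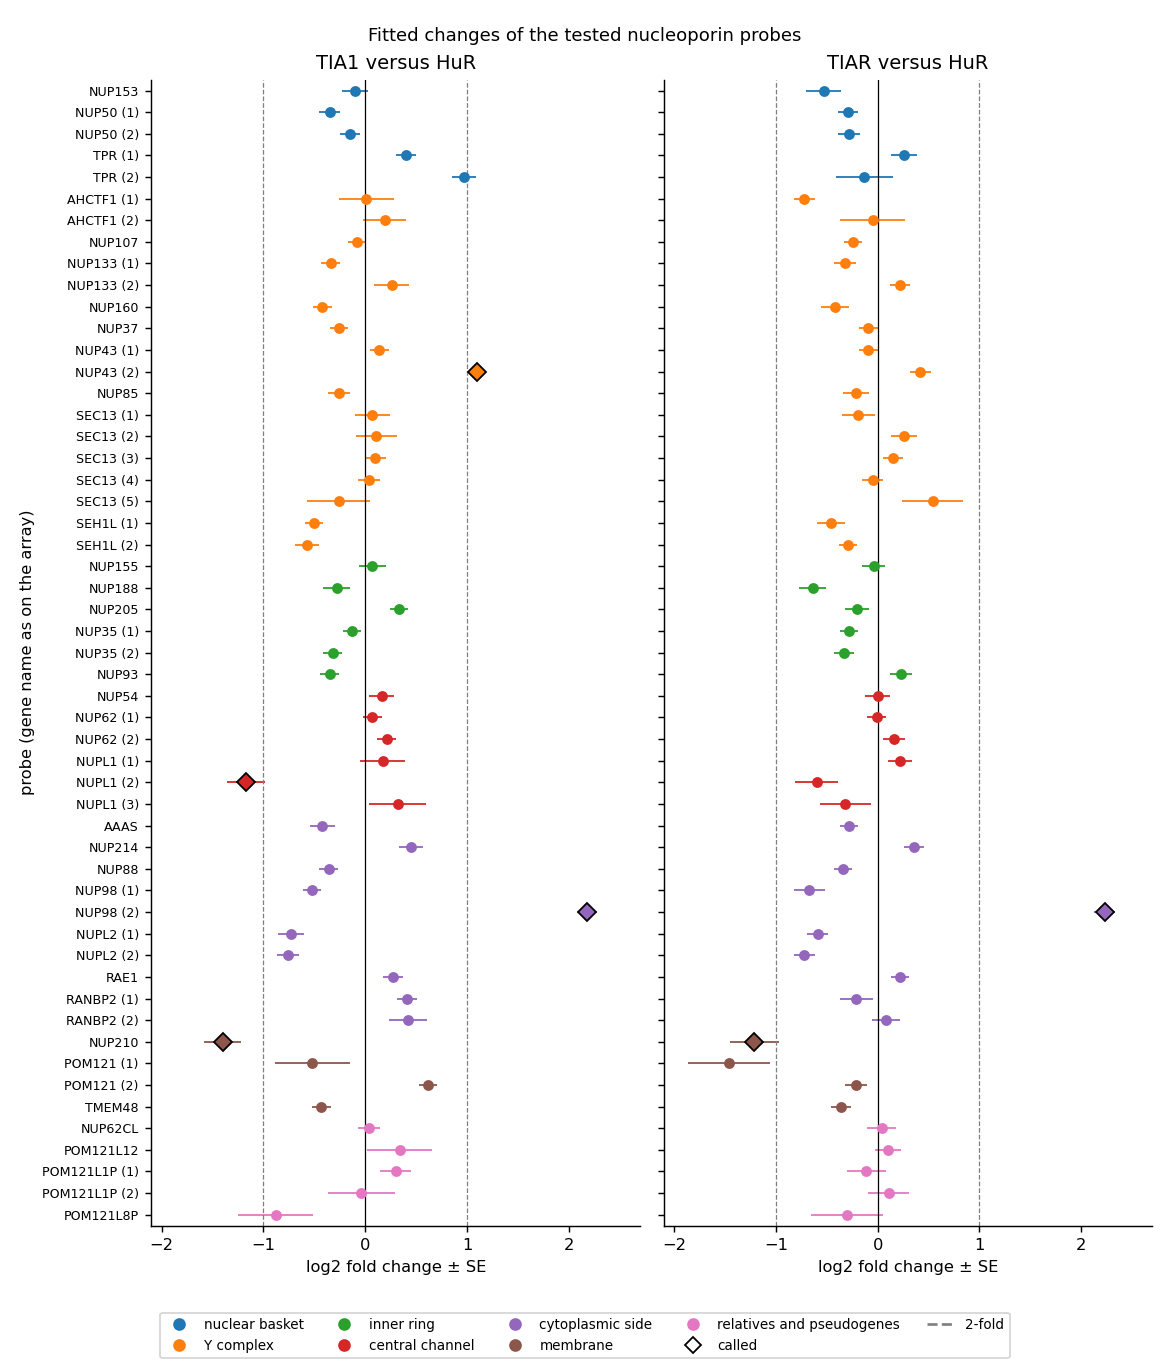
Each row is a tested nucleoporin probe, coloured by its structural group, with its fitted log2 fold change and standard error in TIA1 versus HuR (left) and TIAR versus HuR (right); numbers in brackets tell probes of a gene apart, diamonds mark called probes and dashed lines 2-fold. The NUP98 short-transcript probe stands apart at 2.18 and 2.23, and the other probes lie between -1.46 and 1.10.

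**Figure D4:**
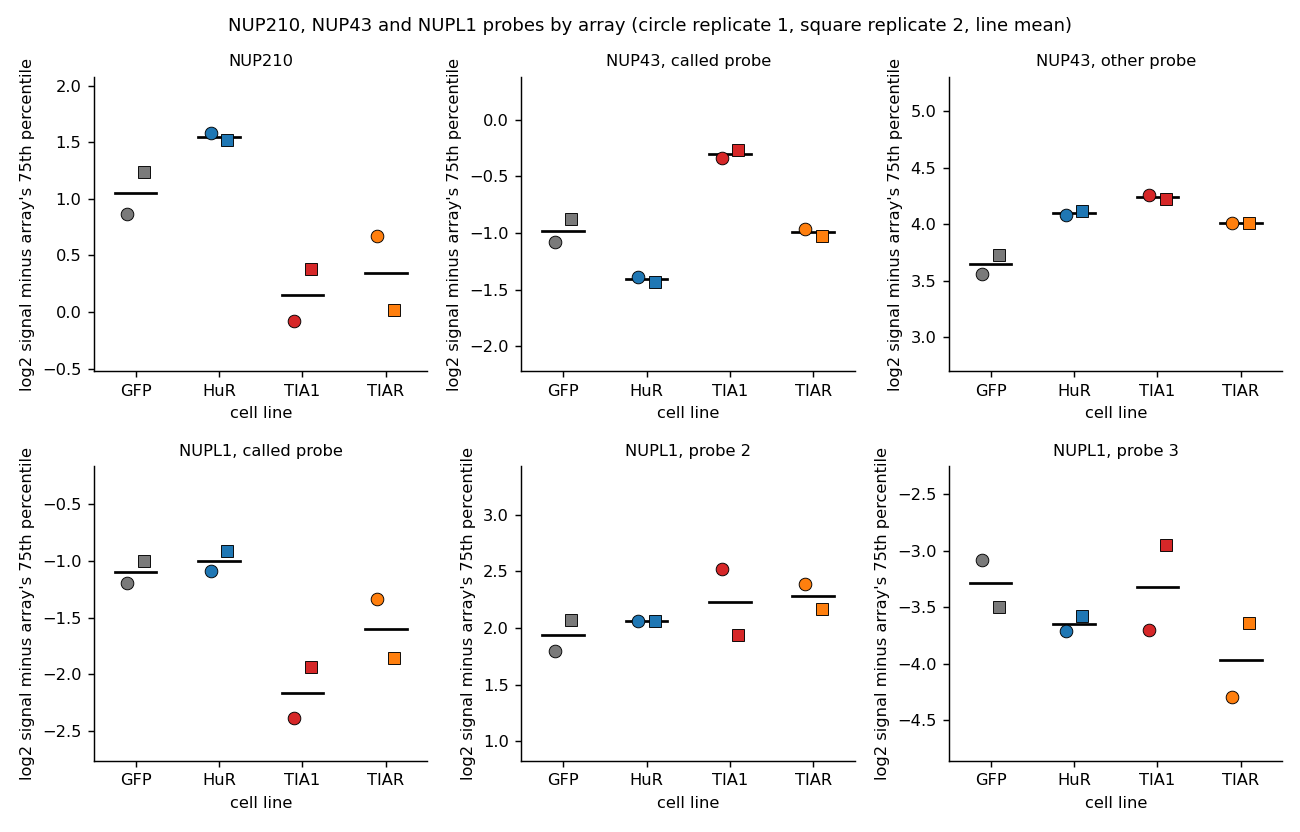
Levels (log2 signal minus the array's 75th percentile) of NUP210 and of every NUP43 and NUPL1 probe in the 4 lines, with circles and squares for replicates 1 and 2 and lines for means; each panel spans the same range of 2.6 log2 units. NUP210 and the called NUPL1 probe are lower in the TIA lines, the called NUP43 probe is highest in TIA1 cells, and the other probes of NUP43 and NUPL1 do not follow the called ones.

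Between the other lines limma called 0 members in either direction. In TIA1 against GFP cells 0 of 51 were called, with 9 at an unadjusted p under 0.05, and in TIAR against GFP cells 0 of 51, with 5. For HuR against GFP cells these were 0 of 52 and 7, and for TIAR against TIA1 cells 0 of 52 and 10. The shares of all probes called were 0% in the comparisons with GFP, and 1.25% higher and 1.11% lower in TIAR against TIA1 cells, while unadjusted p values under 0.05 were found for 21.6%, 16.3%, 17.2% and 23.8% of all probes. The methods' t-test, unadjusted, called 1 member, a NUP35 probe higher in HuR than in GFP cells, and 0 in the other 3 comparisons. The same unadjusted setting called 162 higher and 269 lower over all probes in HuR against GFP cells. It called 414 higher and 305 lower in TIA1 against GFP cells, and 305 higher and 206 lower in TIAR against GFP cells. Between the TIA lines it called 213 higher and 215 lower in TIAR cells. That NUP35 probe (A_33_P3272140) read 0.19 and 0.31 in GFP cells and 1.25 and 1.26 in HuR cells, a change of 1.00 (SE 0.16, limma adjusted p = 0.186). NUP93 (A_23_P89056) read 1.84 and 2.19 in GFP cells and 0.91 and 0.87 in TIA1 cells, a change of -1.12 (SE 0.22, limma adjusted p = 0.124). When all 8 arrays shared one fit, limma called the NUP98 short-transcript probe higher in TIA1 than in GFP cells (adjusted p = 0.00552). NUP93 (adjusted p = 0.00934) and NUPL1 (adjusted p = 0.0328) were called lower there. NUP98 was called higher in TIAR than in GFP cells (adjusted p = 0.00927), and NUP35 higher in HuR than in GFP cells (adjusted p = 0.0151). Over all 28021 probes tested in TIA1 against GFP cells, that fit called 1355 higher and 1176 lower. It called 980 and 708 of 28574 in TIAR against GFP cells, and 387 and 747 of 28848 in HuR against GFP cells.

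The GFP arrays set these comparisons apart. Of the probes that passed the background test in both GFP replicates, 15.8% were at least 2-fold apart, against 0.455% in HuR, 1.13% in TIA1 and 1.45% in TIAR cells. Of the members, 5 of 50 differed so between the GFP replicates, 1 of 53 in HuR, and 0 in TIA1 and TIAR cells. A SEC13 probe (A_33_P3210900) read 0.00 on GFP replicate 1 and -2.24 to -1.74 on all other arrays. Without GFP replicate 2, only GFP replicate 1 stood for the control. The members' median change was then 0.07 in TIA1, -0.06 in TIAR and 0.19 in HuR cells, where all probes had 0.02, -0.01 and -0.01. Without GFP replicate 1 the members had 0.09, -0.18 and 0.01, and all probes 0.04, 0.02 and -0.03.

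Relatives and pseudogenes of the pore genes were mostly dim. Of their 16 probes, 5 could be tested against HuR, and 0 were called by limma, with 0 at an unadjusted p under 0.05, beside 52.4% and 45.5% of all probes. NUP62CL, a NUP62-like gene, was well above background on every array, at -0.80 to -0.17, and changed by 0.04 in both TIA lines. On 13 of the 16 probes (81.2%) GFP replicate 1 was the highest array, by a median of 2.52 over the next, against 49.1% of all probes and 4 of 48 (8.33%) pore probes with a value on every array. A POM121L4P probe (A_33_P3239134) read -2.18 on GFP replicate 1 and -7.81 to -6.20 on the others, where it was not well above background. The part of GFP replicate 1's background in these values was not tested.

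**Figure D5:**
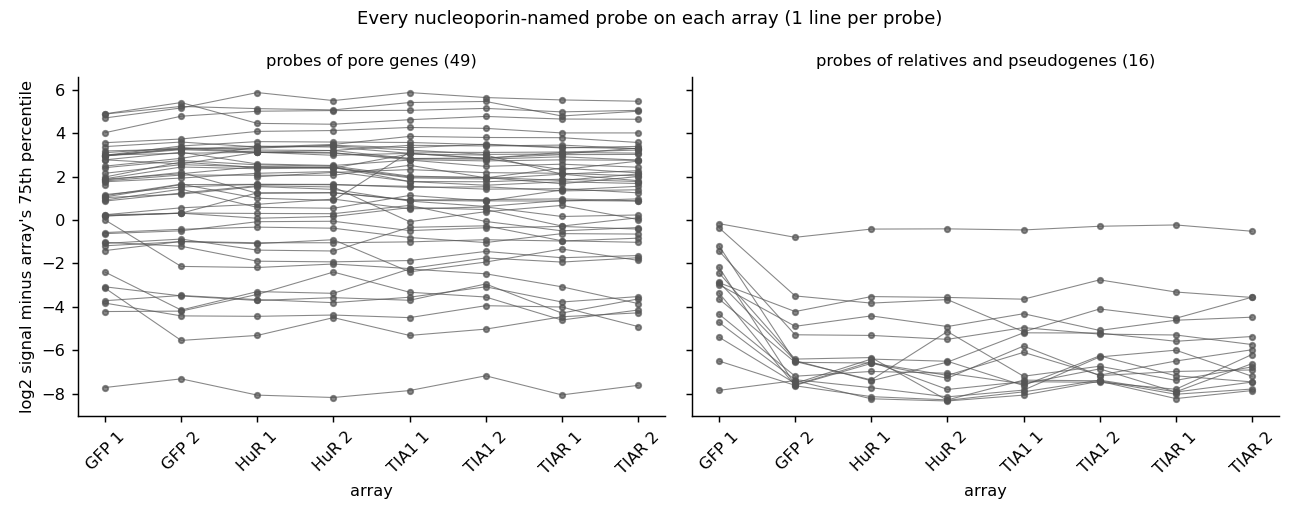
Every member probe is drawn as a line over the 8 arrays (horizontal), with its level as log2 signal minus the array's 75th percentile (vertical), for 49 probes of pore genes (left) and 16 of relatives and pseudogenes (right). Most of the right-hand lines drop from GFP replicate 1 to the other 7 arrays, while most pore probes keep their level.

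Transport factors that pass through the pore, a list of 45 importin, exportin, Ran and mRNA export genes with 66 probes, were read beside the members. Of 62 tested probes, 1 was called higher and 2 lower in TIA1 against HuR cells, and of 63, 1 higher and 3 lower in TIAR against HuR cells. Over all probes 8.52% were called higher and 4.91% lower in the TIA1 comparison, and 7.09% and 3.01% in the TIAR comparison. The list's median changes were -0.07 and -0.21, where the members had 0.01 and -0.20. DDX19B, a helicase of the cytoplasmic face that strips proteins from exported mRNA, read -1.79 and -1.78 in HuR cells, -0.51 and -0.55 in TIA1 cells, 0.60 and 0.44 in TIAR cells, and 0.55 and 0.66 in GFP cells. HuR was its lowest line, and it rose by 1.26 in TIA1 cells (SE 0.09, limma adjusted p = 0.00295) and by 2.30 in TIAR cells (SE 0.11, limma adjusted p = 0.0037). DDX19B also was the one call of the list between the TIA lines, by 1.05 (limma adjusted p = 0.0341). In TIA1 against HuR cells the importin IPO4 fell by 1.28 on the log2 scale (limma adjusted p = 0.00403) and THOC7, of the THO export complex, by 1.01 (limma adjusted p = 0.00481), THOC7 being named after its values were seen. A probe of the import adaptor KPNA1 read -4.07 and -4.09 in GFP cells, -2.65 and -2.36 in HuR cells, -3.43 and -2.96 in TIA1 cells, and -3.92 and -4.12 in TIAR cells. HuR was its highest line, and while the probe fell by 1.51 in TIAR against HuR cells (limma adjusted p = 0.0077), TIAR differed from GFP by 0.06 (limma adjusted p = 0.887). The importin IPO5 and the exportin XPO6 each fell by 1.04 in TIAR against HuR cells on 1 of 2 probes (limma adjusted p = 0.0106 and 0.0172). The IPO5 probe read 1.54 and 1.29 in TIAR, 2.46 and 2.45 in HuR, and 2.58 and 2.57 in GFP cells. On the dim XPO6 probe HuR was the highest line, at -2.87 and -2.49. There TIAR cells, at -3.77 and -3.67, lay between the GFP arrays, at -4.00 and -3.17. Their other probes had changes of -0.84 (IPO5, limma adjusted p = 0.0154) and -0.60 (XPO6, limma adjusted p = 0.0535) and were not called.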

How the data were processed

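RNA of FT293 cells was measured on 8 one-colour Agilent SurePrint G3 Human 8x60K v2 arrays. The deposited intensity values are processed signals that the authors obtained with Feature Extraction 10.7.3.1 (protocol GE1_107_Sep09, hg19), background-subtracted and not normalized between arrays. The deposited table of values for the series holds log2 values, which the authors normalized with a method not given in the sources used here. The submitters' processing notes name limma.

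Signals were log2-transformed and reduced by the array's 75th percentile over non-control spots. Spots marked as outliers were dropped and each probe's remaining spots were averaged. A probe entered a comparison when both arrays of 1 or both lines were well above background and all 4 arrays had a value. Such probes were tested with limma 3.58.1 (lmFit, eBayes) in R 4.3.3. The script was tested on simulated data. Plots used matplotlib 3.10.9. Of the 40 names, 37 are current RefSeq symbols and 3 synonyms, 9 probes cross an exon junction, and 4 have accessions of several genes. Without a genome, exons and untranslated regions were not assigned. No member was saturated, and the number of arrays limits the precision.

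The members and lists were chosen with earlier results of these data known. Named are NUP98, genes with a called probe, the members by structural group, the expressed genes and the 5 called transport factors of largest change (THOC7 was added after its values were seen). The alternatives were normexp (offset 50), quantile normalization, the authors' values, 2 filters, array medians, all 8 arrays, the replicate block, the methods' paired t-test and leaving out each array.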

Additional observations from a re-analysis of the deposited data

How the results depend on the processing

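The NUP98 short-transcript probe stayed called against HuR under each alternative except the methods' t-test after Benjamini-Hochberg adjustment, with a change of 2.18 (adjusted p = 0.215) in TIA1 and 2.23 (adjusted p = 0.281) in TIAR cells, and changed by 2.13 to 2.23 and 2.18 to 2.28 with single arrays left out. That t-test is the paper's general statistic, while its array lists used limma. It rests on 2 pairs and, once adjusted, called 0 of all probes in any comparison, so it cannot tell NUP98 from other probes. In TIA1 against HuR cells the 2 members called higher became 1 with quantile normalization, the authors' value table and array median scaling. With the adjusted t-test they became 0. Over all probes the 2448 called higher became 1803, 951, 2013 and 0 in the same order. The 2 members called lower became 1 without a filter on dim probes and 0 with either form of the t-test. Over all probes the 1410 called lower became 1135 without that filter, 687 with the unadjusted t-test and 0 with the adjusted one. In TIAR against HuR cells the 1 member called higher became 0 with the adjusted t-test, as did the 2062 over all probes. The 1 member called lower became 2 with quantile normalization, the authors' values, the filter for all 4 arrays, array median scaling and the replicate block. Each time a POM121 probe was added. Over all probes the 874 called lower were then 1090, 508, 686, 1139 and 879 in that order. Without a filter and with either t-test 0 members were called lower. Over all probes these settings called 609 lower without a filter, 388 with the unadjusted t-test and 0 with the adjusted one. With all 8 arrays in one fit 1 member was called higher and 2 lower in TIA1 than in GFP cells, 1 higher in TIAR than in GFP cells, and 1 higher in HuR than in GFP cells, which was also the unadjusted t-test's count. Leaving out single arrays gave 2 to 3 higher and 0 to 3 lower for TIA1 against HuR, 1 higher and 0 to 1 lower for TIAR against HuR, 0 to 4 in both directions for TIA1 against GFP, 0 to 1 higher and 0 to 4 lower for TIAR against GFP, 0 to 2 higher and 0 to 5 lower for HuR against GFP, and 0 for TIAR against TIA1.

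Same-numbered replicates did not deviate together: the correlations of their deviations, with 2 pairs in each comparison, ran from -0.07 to 0.15. With the replicate block the NUP98 probe changed by 2.18 (adjusted p = 0.00719) and 2.23 (adjusted p = 0.0145), the members called were 2 higher and 2 lower for TIA1 and 1 higher and 2 lower for TIAR against HuR, and 0 in the other comparisons. Over all probes, the block called 2461 higher and 1441 lower for TIA1 and 2064 higher and 879 lower for TIAR against HuR. Calls over all probes between the TIA lines went from 350 higher and 311 lower to 0 under the block. The median change of all tested probes moved by over 0.1 with another scaling in 5 comparisons: with array medians in TIA1 against HuR (0.08 to -0.03) and HuR against GFP (-0.04 to 0.14), with the authors' values in TIAR against HuR (0.06 to -0.05), TIA1 against GFP (0.01 to 0.17), TIAR against GFP (-0.02 to 0.13) and HuR against GFP (to 0.16), and with quantile normalization in TIA1 (to 0.26), TIAR (to 0.23) and HuR (to 0.25) against GFP. Without a filter it moved to 0.33 and 0.22 in TIA1 and TIAR against HuR, and to -0.34, -0.36 and -0.53 in TIA1, TIAR and HuR against GFP.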
